A study of Mus musculus with 24 samples.

Results

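The 10 genes S100a4, S100a6, S100a10, S100a11, Anxa1, Anxa2, Lgals1, Lgals3, Cd44 and Id2 are commonly read as markers of memory and effector T cells. All probes that carried one of these symbols in the deposited table were taken, which gave 16 probes among the 25697 on the array, and the 10 genes were set among 17871 genes in all. Each gene was described by its brightest probe, the one with the highest mean over all arrays. Cd44 had 6 probes and Id2 had 2, and the other 8 genes had 1 probe each. All 10 genes passed the detection filter, as did 10418 of the 17871 genes. For Anxa1 this rested on 2 of the 24 arrays, and for S100a4 on 17.

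RNA of mouse CD4+ T cells was hybridized to Illumina bead arrays in 4 cell states and 2 genotypes, with 3 arrays per group, labelled replicates A, B and C, and 24 arrays in all. The wild type mice (WT) were compared with mice conditionally deficient in BAF180 (KO), the protein encoded by Pbrm1 and a subunit of the PBAF form of the SWI/SNF chromatin remodelling complex. In the KO mice the floxed gene was deleted by Cre under the CD4 promoter and enhancer, so the loss begins late in thymocyte development. The labels give mice of the Balb/c strain, 4 to 6 weeks old, in both genotypes, and name no further allele of the WT mice.

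Resting naive cells were naive CD4+ T cells of spleen and lymph node, purified to 95% with a kit for CD4+ CD62+ cells and not cultured. Stimulated naive cells were these cells after 24 h on plates coated with anti-CD3 (1 ug/ml) and anti-CD28 (2 ug/ml). For resting Th2 cells the naive cells were plated on the same antibodies with IL-4 (10 ng/ml) and anti-IFN-gamma (10 ug/ml), and IL-2 (100 U/ml) was added after 24 h and used for expansion. Stimulated Th2 cells were resting Th2 cells treated with PMA (50 ng/ml) and ionomycin (500 ng/ml) for 1.5 h. The 2 stimulations thus differed in agent and in duration, and Th2 cells differed from naive cells both in lineage and in culture.

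S100 proteins are small calcium-binding proteins, annexins bind membrane phospholipids when calcium rises, and galectins bind beta-galactoside sugars on glycoproteins. S100A10 and annexin A2 form a complex at the inner face of the plasma membrane, and S100A11 is a partner of annexin A1. CD44 is the receptor for hyaluronan and is kept high on T cells that have met antigen, while Id2 binds E proteins and blocks their contact with DNA. In T cells these genes are known for low levels in naive cells and higher levels in memory and effector cells.

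The labels were first checked against marker genes. Pbrm1 itself was lower in KO than in WT cells in each state, with log2 differences of -1.01 in resting naive, -1.63 in stimulated naive, -1.86 in resting Th2 and -1.42 in stimulated Th2 cells. All KO arrays lay below all WT arrays in each of the 4 states (exact permutation test, two-sided, p = 0.1 in each, the smallest that 3 arrays against 3 can give). All 7 T cell identity genes, such as Cd3e and Cd4, were detected on every array. Il4, the Th2 signature cytokine, had WT mean log2 levels of 6.93 in resting naive, 9.43 in resting Th2 and 14.02 in stimulated Th2 cells. In WT stimulated naive cells its mean was 9.64, so Il4 did not separate resting Th2 from stimulated naive cells. Gata3, the Th2 master regulator, went from 7.97 in WT resting naive to 9.60 in resting Th2 and 10.74 in stimulated Th2 cells. The summed intensity (linear scale) of the 8 Th2 genes was 1272 to 2146 on WT stimulated naive and 1428 to 2375 on WT resting Th2 arrays. The list as a whole thus did not separate these 2 states either, while WT stimulated Th2 arrays reached 20757 to 22514.

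Resting naive cells also carried signal of other cell types. Of 12 myeloid genes 11 were on the array and 9 were detected, all 9 of them on every resting naive array, and the brightest was Lyz1, a lysozyme gene, with a mean log2 level of 11.18 in WT and 11.34 in KO cells. Their summed intensity (linear scale) was 4456, 5097 and 13338 on WT arrays A, B and C and 5210, 6998 and 7827 on the KO arrays. WT replicate C of the resting naive cells thus stood apart, and the main results on WT resting naive cells are also given without it. In the other 3 states the sum was between 610 and 1358, and Lyz2, a second lysozyme gene, was detected on none of those arrays. The 8 detected B cell genes, led by Cd74, summed to between 5287 and 8632 in resting naive cells and to between 291 and 1659 elsewhere. In bulk RNA of this kind, fewer cells of a type and less RNA per cell cannot be told apart.

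**Figure D1:**
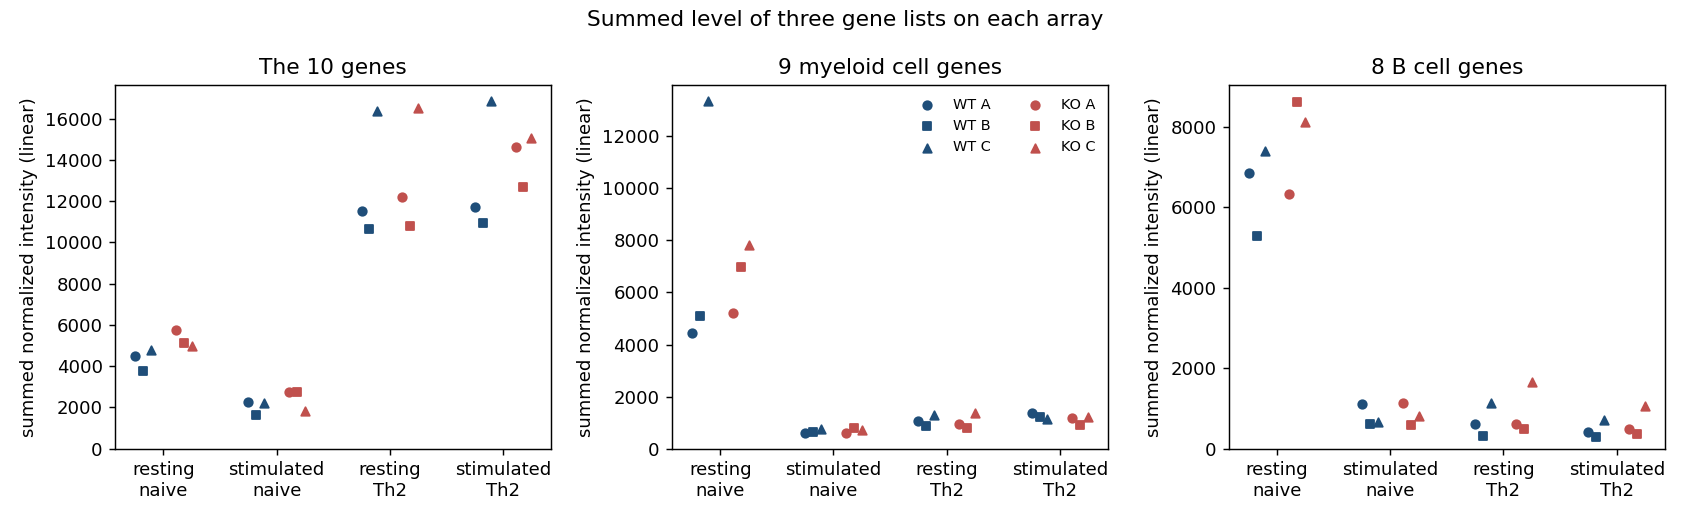
Summed normalized intensity (linear scale) on each of the 24 arrays for the 10 memory and effector genes, for 9 myeloid genes and for 8 B cell genes, by cell state. Points are single arrays, coloured by genotype and shaped by replicate letter. The myeloid and B cell sums are highest in resting naive cells, where WT replicate C reaches 13338 for the myeloid genes, while the 10 genes are highest in Th2 cells.

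S100a6, a member of the S100 cluster on chromosome 3, had the widest range of the 4 S100 genes. Its log2 levels on replicates A, B and C were 6.88, 7.15 and 6.35 in WT resting naive cells and 4.30, 4.57 and 4.98 after stimulation. In WT Th2 cells they were 8.48, 8.75 and 8.96 at rest and 8.99, 9.07 and 8.30 after stimulation. The 3 states of naive rest, naive stimulation and Th2 thus did not overlap, while resting and stimulated Th2 cells did. The KO arrays of S100a6 read 8.47, 7.85 and 7.34 in resting naive and 5.38, 5.47 and 4.87 in stimulated naive cells. The KO Th2 arrays read 8.91, 8.40 and 8.60 at rest and 9.29, 8.89 and 8.31 after stimulation, and again overlapped each other. Only 1 of the 3 WT stimulated naive arrays had S100a6 above background, so folds against that group are understated.

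S100a10, the light chain that holds annexin A2 at the membrane, was low in both naive states and high in both Th2 states. WT arrays A, B and C read 6.59, 6.67 and 6.92 in resting naive, 6.58, 6.39 and 6.75 in stimulated naive, 8.90, 8.53 and 9.93 in resting Th2 and 9.20, 9.17 and 9.36 in stimulated Th2 cells. KO arrays of S100a10 read 7.82, 7.38 and 7.28, then 6.56, 7.29 and 6.89, then 8.85, 8.64 and 9.60, and last 9.22, 8.86 and 9.29 in the same order of states. Every Th2 array was above every naive array, and replicate C was the highest of the resting Th2 arrays in both genotypes.

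Anxa2, its annexin partner, was likewise high in both Th2 states. WT arrays read 9.72, 9.37 and 10.04 in resting naive, 9.27, 8.64 and 9.24 in stimulated naive, 11.97, 11.76 and 12.16 in resting Th2 and 11.59, 11.31 and 12.07 in stimulated Th2 cells. KO arrays of Anxa2 read 10.59, 10.16 and 9.79 in resting naive and 9.38, 9.49 and 8.89 in stimulated naive cells, and between 11.53 and 12.09 in Th2 cells. Among all pairs of the 10 genes, S100a10 and Anxa2 had the most alike patterns, with a root mean square difference of 0.23 log2 units over the 8 group means after each gene was centred on its own mean.

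S100a11, a calcium sensor that pairs with annexins, did not follow that order, and its resting naive arrays lay close to its Th2 arrays. WT arrays A, B and C read 11.25, 10.96 and 11.17 in resting naive cells and 9.58, 9.24 and 9.44 after stimulation. In WT Th2 cells they read 11.37, 11.43 and 11.63 at rest and 11.04, 11.15 and 11.44 after stimulation. Stimulated naive cells were the only low state of S100a11, below every array of the other 3 states. The KO resting naive arrays of S100a11 overlapped the WT ones, at a mean of 11.12 (SD 0.14, n = 3). KO arrays read 9.59, 8.95 and 8.82 in stimulated naive, 11.12, 10.89 and 11.23 in resting Th2 and 10.92, 10.32 and 10.85 in stimulated Th2 cells.

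Lgals1 separated naive from Th2 cells without overlap in both genotypes, and Lgals3 did so in KO but not in WT cells. Lgals1, a secreted galectin that binds T cell surface glycoproteins, read 7.49, 7.85 and 7.60 on WT resting naive, 7.28, 7.12 and 7.86 on WT stimulated naive, 11.33, 11.44 and 12.42 on WT resting Th2 and 11.21, 11.55 and 12.25 on WT stimulated Th2 arrays. On KO arrays Lgals1 read 8.72, 8.56 and 8.60, then 8.59, 8.71 and 7.79, then 11.86, 11.42 and 12.60, and last 12.02, 11.67 and 12.21. Naive and Th2 arrays of Lgals1 were far apart and the 2 states of each subset overlapped. Lgals3, a galectin found inside and outside the cell, read 8.44, 8.18 and 9.01 on WT resting naive, 8.11, 7.07 and 8.13 on WT stimulated naive, 9.89, 8.94 and 10.24 on WT resting Th2 and 11.18, 10.20 and 11.57 on WT stimulated Th2 arrays. Its KO arrays read 9.10, 9.20 and 8.68, then 8.90, 9.37 and 7.70, then 10.05, 10.13 and 10.87, and last 11.45, 11.83 and 11.49. The WT resting Th2 arrays of Lgals3 overlapped with both neighbouring states, with replicate B low in each of the WT groups.

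Cd44 had a range of 1.21 log2 units over its 8 group means. WT arrays of its brightest probe read 7.84, 7.31 and 8.13 in resting naive, 7.77, 7.09 and 7.05 in stimulated naive, 7.50, 7.24 and 7.45 in resting Th2 and 8.73, 8.64 and 7.92 in stimulated Th2 cells. KO arrays of Cd44 read 7.76, 8.08 and 7.81, then 7.60, 6.90 and 7.14, then 7.45, 7.16 and 7.22, and last 8.36, 7.87 and 7.86. Stimulated Th2 cells were the highest state, and only against resting Th2 and stimulated naive cells without overlap in WT. The other 5 Cd44 probes had mean log2 levels of 4.36 to 5.03 and were detected on 1 to 16 arrays, so the gene's pattern rests on 1 probe.

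Id2 was lowest in stimulated naive and highest in stimulated Th2 cells. WT arrays read 7.58, 7.15 and 7.55 in resting naive, 5.93, 5.90 and 6.41 in stimulated naive, 8.20, 7.13 and 7.86 in resting Th2 and 8.16, 8.70 and 9.22 in stimulated Th2 cells. KO arrays of Id2 read 7.63, 7.93 and 7.63, then 5.98, 6.66 and 7.04, then 7.95, 7.91 and 8.34, and last 8.82, 8.46 and 9.50. The second Id2 probe was dim, with a mean of 4.96 and detection on 16 arrays.

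S100a4 and Anxa1 were near background. S100a4, known as a marker of memory T cells, had group means between 4.43 and 5.29 and was detected on all resting naive and resting Th2 arrays, on 1 WT and no KO array of stimulated naive cells, and on 2 arrays of each stimulated Th2 group. Anxa1, a phospholipid-binding protein that acts on formyl peptide receptors, had group means between 4.20 and 4.61 and was detected on 1 WT resting Th2 and 1 WT stimulated Th2 array only.

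**Figure D2:**
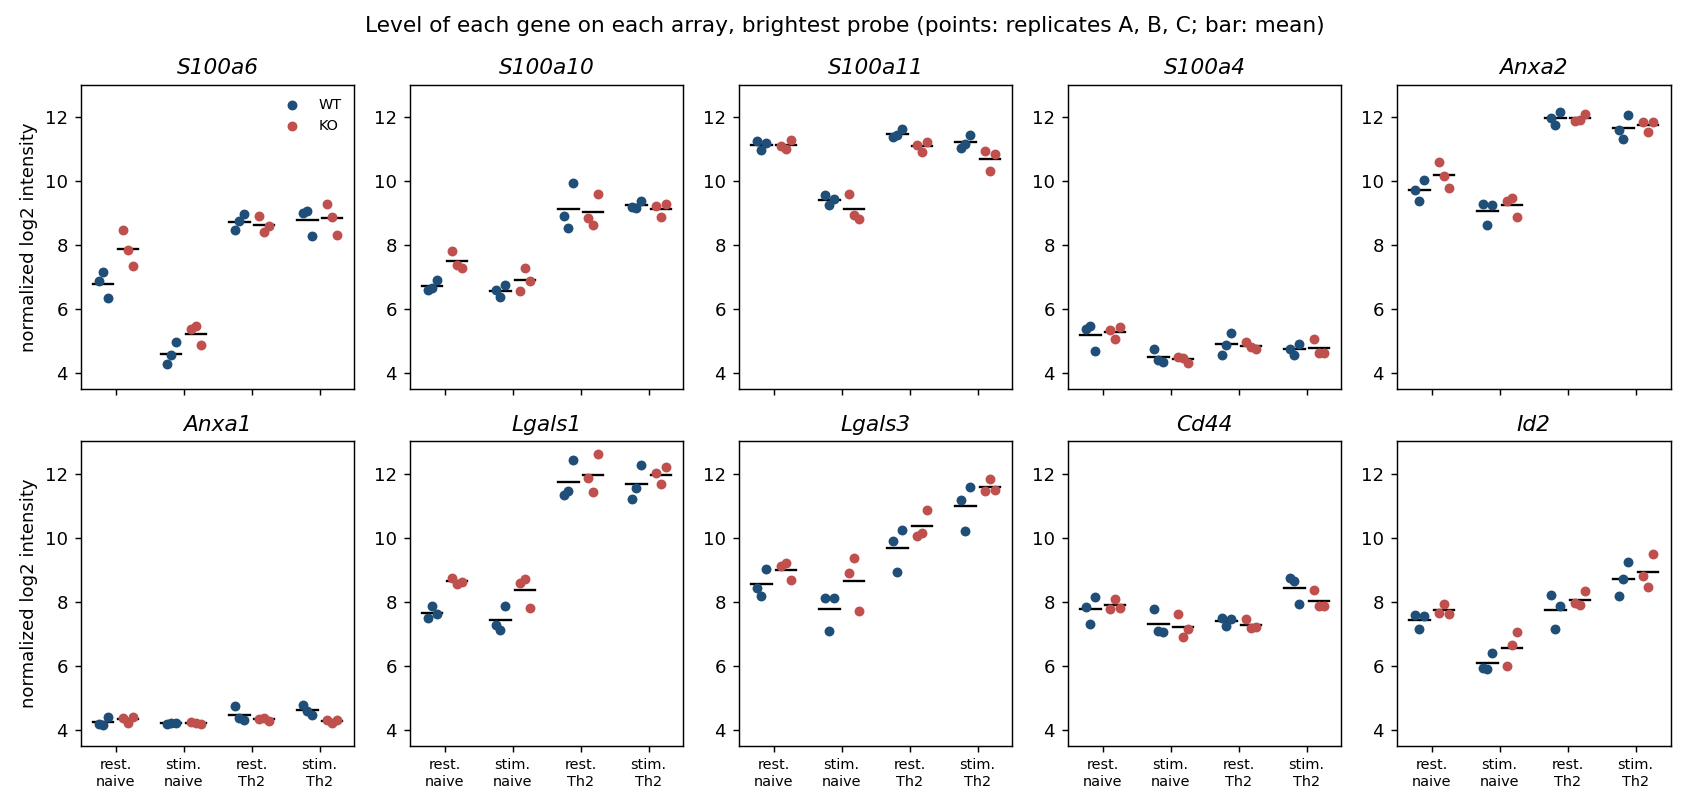
Normalized log2 intensity of the 10 genes on each array (vertical axis), by cell state and genotype. Points are replicates A, B and C from left to right and bars are group means of 3 arrays. S100a6, S100a10, Anxa2, Lgals1 and Lgals3 are highest in Th2 cells, S100a11 is low only in stimulated naive cells, and S100a4 and Anxa1 stay near background.

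By the range of its 8 group means, Lgals1 lay above 99.2% and S100a6 above 98.9% of the genes that passed the detection filter, Lgals3 above 98.3%, Anxa2 above 95.4%, Id2 above 95.0%, S100a10 above 93.7% and S100a11 above 91.1%. Cd44 was at 64.0%, S100a4 at 47.3% and Anxa1 at 21.1%. Outside the 10 genes, the pattern most like that of S100a6 was that of Ifitm2, at a root mean square difference of 0.52 log2 units over the 8 group means, followed by Vim at 0.63 and Emp1 at 0.68. Nearest to Lgals1 were Vim at 0.60 and S100a1 at 0.62, nearest to Lgals3 was Emp1 at 0.34, and nearest to Anxa2 was S100a13 at 0.22. S100a10 lay nearest to Niban2 at 0.24, S100a11 to Gstk1 at 0.23, Cd44 to Cntf at 0.12 and Id2 to Pparg at 0.27.

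Promoter sequence is shown for 3 genes with differences between the states, to place the data beside the DNA. The window ran from 250 bases before to 50 after each gene's start (RefSeq, GRCm38.p6), and 8 of the 10 genes had an entry. Both strands were searched for the AP-1 motif TGANTCA, the GATA motif AGATAA and the STAT6 motif, TTC and GAA with 4 bases between them, which are held by 7.81%, 11.2% and 6.95% of 32851 promoters of this length. Each of the 3 was found in 2 of the 8 windows, AP-1 in S100a11 and Anxa2, GATA in S100a11 and Cd44, and STAT6 in Lgals3 and Cd44. The 3 printed were chosen after their matches were seen, and a match is a description of the letters, not a site of binding. S100a11 lies at chr3:93520246-93520545, Anxa2 at chr9:69453433-69453732 and Lgals3 at chr14:47373610-47373909, all on the + strand. Capitals mark the motif matches, which for S100a11 are a GATA match on the opposite strand and 2 AP-1 matches, for Anxa2 1 AP-1 match and for Lgals3 2 STAT6 matches.
S100a11: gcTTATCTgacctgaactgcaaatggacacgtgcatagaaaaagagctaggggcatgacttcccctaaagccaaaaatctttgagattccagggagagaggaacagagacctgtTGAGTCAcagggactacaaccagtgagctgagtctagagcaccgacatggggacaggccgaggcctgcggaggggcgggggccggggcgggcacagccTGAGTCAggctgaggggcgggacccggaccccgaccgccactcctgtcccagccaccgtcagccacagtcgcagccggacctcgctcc
Anxa2: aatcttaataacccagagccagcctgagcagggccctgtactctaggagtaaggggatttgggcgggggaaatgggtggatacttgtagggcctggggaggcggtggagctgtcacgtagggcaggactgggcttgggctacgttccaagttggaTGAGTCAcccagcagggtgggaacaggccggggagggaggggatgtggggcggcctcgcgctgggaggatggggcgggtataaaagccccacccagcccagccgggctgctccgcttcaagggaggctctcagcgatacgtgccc
Lgals3: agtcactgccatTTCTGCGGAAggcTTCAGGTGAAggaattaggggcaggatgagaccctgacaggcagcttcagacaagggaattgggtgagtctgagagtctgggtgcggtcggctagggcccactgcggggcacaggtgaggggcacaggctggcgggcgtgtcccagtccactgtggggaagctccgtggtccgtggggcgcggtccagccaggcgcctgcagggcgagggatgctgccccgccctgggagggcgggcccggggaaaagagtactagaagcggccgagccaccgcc

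The first comparison between states asked how the genes differ between naive and Th2 cells. At rest, 5 of the 10 genes were higher in WT Th2 than in WT naive cells and none was lower at an adjusted p under 0.05 in limma, with a background of 17.9% of all genes tested called higher. Lgals1 rose by 4.08 on the log2 scale (SE 0.33, 16.9-fold, adjusted p = 5.84e-09), S100a10 by 2.39 (SE 0.28, 5.26-fold, 1.43e-06), Anxa2 by 2.25 (SE 0.23, 4.77-fold, 2.48e-07), S100a6 by 1.93 (SE 0.30, 3.82-fold, 3.86e-05) and Lgals3 by 1.15 (SE 0.42, 2.22-fold, 0.0385). For all of these but Lgals3, and for S100a11, the 3 Th2 arrays lay above the 3 naive arrays, 5 genes in all, which 22.9% of all genes did. S100a11 (0.35), Id2 (0.31), Cd44 (-0.36), S100a4 (-0.27) and Anxa1 (0.22) did not pass the test. The median over the 10 genes was 0.75, against 0.00 over all genes tested. Without WT resting naive replicate C, 6 genes were called, with differences of 4.06 for Lgals1, 2.49 for S100a10, 2.43 for Anxa2, 1.72 for S100a6 and 1.38 for Lgals3 (adjusted p = 0.0253), and with S100a4 then lower (-0.52, adjusted p = 0.0406). The call of Lgals3 was lost in 4 of the 6 fits that left out 1 array, namely WT resting naive replicate A or B or WT resting Th2 replicate A or C (0.87 to 1.52 over all 6, adjusted p up to 0.167). The myeloid and B cell genes were called lower in the same comparison, 8 of 9 and 4 of 8, against 17.6% of all genes called lower. Among the 9 myeloid genes, 5 were detected on no WT resting Th2 array. Of 8 regulatory T cell genes 5 were lower and 2 higher (median -2.23), and of 4 natural killer genes 2 were lower (median -0.64). The part of these cell types in the members' differences was not tested.

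In KO cells the same comparison called 4 genes higher and none lower, with a background of 18.2% called higher. Lgals1 rose by 3.33 (SE 0.33, 10.1-fold, limma adjusted p = 1.07e-07), S100a10 by 1.54 (SE 0.28, 2.90-fold), Anxa2 by 1.78 (SE 0.23, 3.43-fold) and Lgals3 by 1.36 (SE 0.42, 2.56-fold). The call of Lgals3 was lost without KO resting naive replicate C (adjusted p = 0.0577) and without KO resting Th2 replicate C (adjusted p = 0.0862). S100a6 differed by 0.75 (SE 0.30, adjusted p = 0.0581) and its arrays overlapped. It was called with the replicate letter as a block (0.75, adjusted p = 0.0371), where Cd44 was called lower too (-0.60, adjusted p = 0.0321, against 0.0621 without the block) and the count went from 4 to 6 genes, and without KO resting naive replicate A (1.04, 0.0155). The difference between the genotypes' changes was -1.19 for S100a6 (SE 0.42, 95% confidence interval -2.07 to -0.31), -0.86 for S100a10 (SE 0.40) and -0.75 for Lgals1 (SE 0.46). Without WT resting Th2 replicate C the value of S100a10 was -0.45. None of the 10 genes passed the test of that difference (limma adjusted p = 1.00, unadjusted 0.0107 for S100a6 and 0.0445 for S100a10), against a background of 0.0096% of genes.

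More of the genes were called between the stimulated states. In WT cells, 9 of the 10 genes were called higher in stimulated Th2 than in stimulated naive cells, all but S100a4, with a background of 8.79% called higher. Lgals1 was 19.0-fold higher (log2 difference 4.25, limma adjusted p = 9.57e-09), S100a6 18.0-fold (4.17, 3.58e-09), Lgals3 9.27-fold (3.21), S100a10 6.38-fold (2.67), Id2 6.14-fold (2.62), Anxa2 6.09-fold (2.61), S100a11 3.45-fold (1.79) and Cd44 2.18-fold (1.12, adjusted p = 0.00227). Anxa1 was above background on 1 of these 6 arrays, a Th2 array, and passed the detection filter only through Th2 arrays. No size is therefore given for its difference, and it is counted as called but not read as a result. Its call (limma adjusted p = 0.018) was lost without WT stimulated naive replicate A (0.0577) and without WT stimulated Th2 replicate A (0.101). In KO cells 8 genes were called higher, the same ones without Anxa1, against 8.99% of all genes, with Lgals1 at 12.2-fold and S100a6 at 12.1-fold. The KO call of Cd44 was lost without KO stimulated naive replicate B (0.66) or C (0.78) and without KO stimulated Th2 replicate A (0.65, adjusted p = 0.118). Between resting Th2 and stimulated naive cells 7 genes were higher in Th2 cells in each genotype, against 11.4% of genes in WT and 10.9% in KO, namely S100a6, S100a10, S100a11, Anxa2, Lgals1, Lgals3 and Id2. In WT cells Lgals1 was 19.8-fold and S100a6 17.3-fold higher there, and S100a11 4.16-fold.

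The second comparison asked what stimulation of naive cells changed. In WT cells, 5 of the 10 genes fell and none rose, with a background of 21.9% called lower. S100a6 fell by 2.18 on the log2 scale (SE 0.30, 4.53-fold lower, limma adjusted p = 5.11e-06), S100a11 fell by 1.71 (SE 0.19, 3.26-fold, 3.28e-07), Id2 fell by 1.35 (SE 0.31, 2.54-fold, 0.00136), S100a4, above background on 1 of the 3 stimulated arrays, fell by 0.67 (SE 0.20, 0.00982) and Anxa2 fell by 0.66 (SE 0.23, 0.0279). All of these but S100a4, and Lgals3, had stimulated arrays below all resting arrays, 5 genes in all, which 23.8% of genes had. Lgals3 (-0.77, adjusted p = 0.147), Cd44 (-0.45), Lgals1 (-0.23), S100a10 (-0.15) and Anxa1 (-0.05) did not pass. The call of Anxa2 was lost without WT resting naive replicate C (-0.49, adjusted p = 0.129), without replicate A of that group (-0.65, 0.0603) and without WT stimulated naive replicate B (-0.45, 0.162), and its sign turned to 0.071 under median scaling. The call of S100a4 was lost without WT resting naive replicate B (-0.52, 0.0644). Without WT resting naive replicate C, 4 genes were called, as S100a6 fell by 2.41, S100a11 fell by 1.68, Id2 fell by 1.29 and S100a4 fell by 0.92, with Lgals3 at -0.54.

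In KO cells 6 genes fell, with a background of 21.3% called lower. S100a6 fell by 2.65 (SE 0.30, 6.27-fold, limma adjusted p = 4.42e-07), S100a11 fell by 2.01 (SE 0.19, 4.02-fold, 3.60e-08), Id2 fell by 1.17 (2.25-fold, 0.00434), Anxa2 fell by 0.93 (0.00285) and Cd44 fell by 0.67 (0.034). The call of Cd44 was lost in 4 of the 6 fits that left out 1 array, namely KO resting naive replicate B or C or KO stimulated naive replicate B or C (-0.86 to -0.51 over all 6, adjusted p up to 0.156). S100a4, not well above background on any KO stimulated naive array, was at least 1.58-fold lower (means 5.29 and 4.43, adjusted p = 0.0015), the bound being the lowest signal well above background on each array. None of the 10 genes passed the test of the difference between the genotypes' changes (limma adjusted p = 1.00 for each), which 0.0096% of all genes did. All 9 detected myeloid genes fell in the same comparison in WT cells (21.9% of all genes did), with a median of -3.04, and 4 of these 9 were detected on no WT stimulated naive array. Among 8 B cell genes 4 fell, including Cd74 (-3.44), a chaperone of antigen presentation. Lyz2, a lysozyme gene of macrophages, was at least 34.5-fold lower. Of 8 regulatory T cell genes 5 fell and 1 rose in WT cells (median -1.04), and 3 of 4 natural killer genes fell (median -0.66). The 1 detected CD8 T cell gene did not pass the test in WT cells (-0.77) and fell in KO cells (-1.42). Several of the 10 genes are known to be active in myeloid cells too, and the part of that signal in their fall was not tested.

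The third comparison asked what a short PMA and ionomycin treatment changed in Th2 cells. In WT cells 3 genes rose and none fell, with a background of 12.5% called higher. Lgals3 rose by 1.29 (SE 0.42, 2.45-fold, limma adjusted p = 0.0247), Cd44 by 1.03 (SE 0.25, 2.05-fold, 0.00294) and Id2 by 0.96 (SE 0.31, 1.95-fold, 0.0244), and of these only Cd44 had all stimulated arrays above all resting arrays, as 18.7% of genes did. Without WT resting Th2 replicate B or WT stimulated Th2 replicate C, 1 gene was called, and the calls of Lgals3 and Id2 were each lost in 3 of the 6 fits that left out 1 array. In KO cells the same 3 genes rose, against 11.7% of genes called higher, Lgals3 by 1.24 (adjusted p = 0.0324), Id2 by 0.86 (0.0474) and Cd44 by 0.75 (0.0268), each with all stimulated arrays above (20.3% of genes). Without KO resting Th2 replicate B or KO stimulated Th2 replicate A none was called, and of 6 such fits the call was lost in 5 for Lgals3, in 4 for Id2 and in 3 for Cd44. S100a6, S100a10, Anxa2, S100a11 and Lgals1 differed by -0.38 to 0.20 over both genotypes and did not pass, nor did S100a4 and Anxa1.

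**Figure D3:**
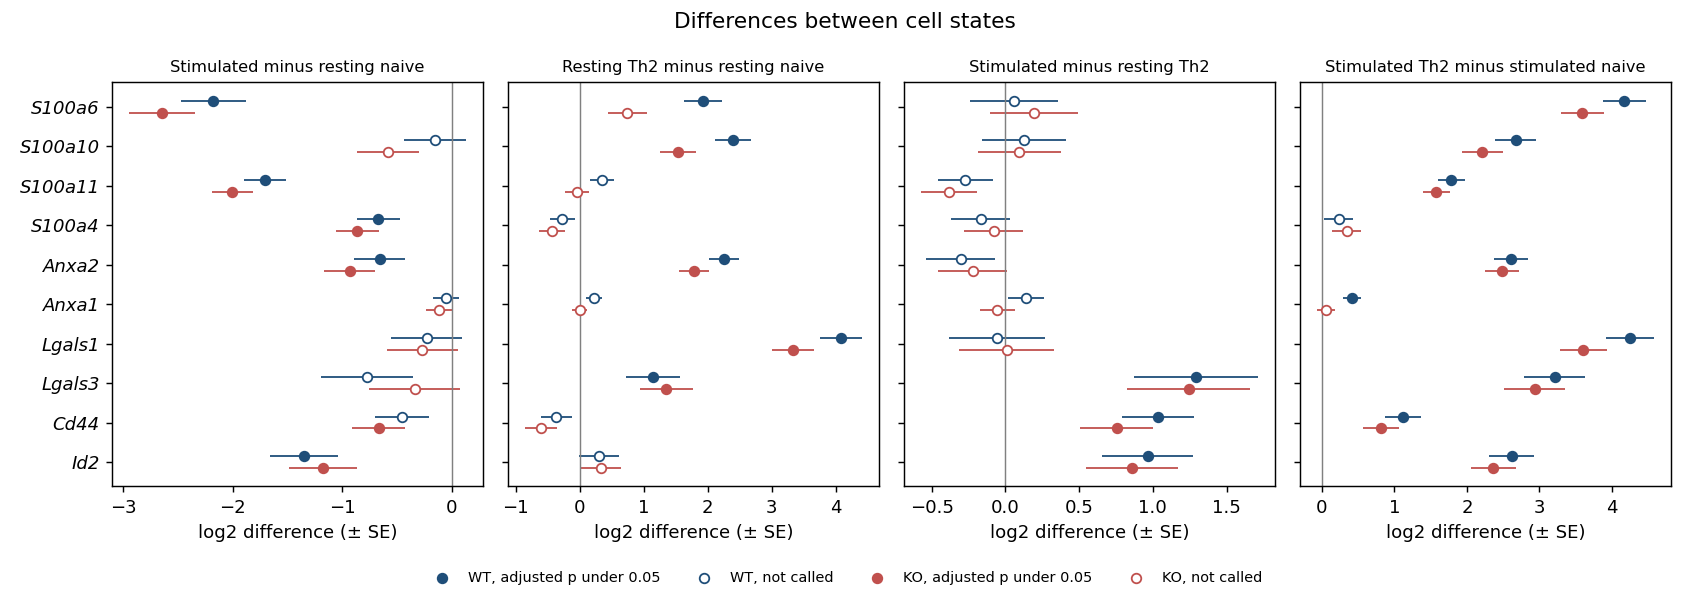
Log2 difference between cell states with its SE (horizontal axis) for each of the 10 genes, in WT and KO cells. Filled points passed an adjusted p under 0.05 in limma and open points did not. Lgals1, S100a10 and Anxa2 sit right of 0 in both comparisons of Th2 with naive cells, S100a6 and S100a11 sit furthest left after naive stimulation, and only Lgals3, Cd44 and Id2 are filled after Th2 stimulation.

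The fourth comparison asked how loss of BAF180 changed the genes in each state. A gene was called here by 4 criteria adapted from the study's methods, a difference beyond 1.5 SD of all probes' differences, a false discovery rate under 0.3, p under 0.05 and a mean signal above 0, with p and rate from limma. The SD was taken over log2 differences in place of the study's Z-scores, which set the limit at 0.36 log2 units in resting naive cells, and the last criterion was met by every probe after normalization. In resting naive cells 1 of the 10 genes was called, S100a6, with a background of 0.758% of genes called (0.442% higher). It was higher in KO cells by 1.09 on the log2 scale (SE 0.30, 95% confidence interval 0.47 to 1.72, 2.13-fold, unadjusted p = 0.00151, adjusted p = 0.263). The 3 KO arrays of 7.34 to 8.47 lay above the 3 WT arrays of 6.35 to 7.15, and the call was lost at an adjusted p under 0.05. Without WT replicate C the difference was 0.87 (adjusted p = 0.289). Without KO replicate A it was 0.80 (0.617) and without KO replicate B 1.12 (0.404), and the call was lost in both.

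Lgals1 and S100a10 were also above WT on every KO resting naive array but were not called. Lgals1 differed by 0.98 (SE 0.33, interval 0.30 to 1.66, 1.97-fold, limma adjusted p = 0.477) and S100a10 by 0.77 (SE 0.28, interval 0.18 to 1.36, 1.70-fold, adjusted p = 0.572). Without WT replicate C, S100a10 was called too (0.86, adjusted p = 0.293) and Lgals1 differed by 0.96 (0.327). Id2 had no overlap either, at a difference of 0.31 (adjusted p = 0.996), which was 0.17 without WT replicate B. No overlap with KO above WT was thus seen in 4 of the 10 genes, against 4.39% of all genes, and an unadjusted p under 0.05 in 3 of the 10, against 7.2%. Anxa2 (0.47), Lgals3 (0.45), Cd44 (0.12), S100a4 (0.11), Anxa1 (0.08) and S100a11 (0.00) overlapped. Leaving out 1 array gave 0.27 to 0.67 for Anxa2 and 0.27 to 0.69 for Lgals3. The median over the 10 genes was 0.38, against 0.00 over all genes tested.

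Other gene lists moved beside these values in resting naive cells. No myeloid or B cell gene was called between the genotypes. All 8 detected B cell genes were higher in KO cells (median difference 0.19), and of the 9 myeloid genes 6 were higher and 3 lower (median 0.12). All 7 other S100 genes that passed the filter were higher in KO cells too (median 0.46), 1 of them called. In this state 3 of the 7 were detected on no WT array and 3 on no KO array, so no direction is read from those. S100a8 and S100a9 are in the myeloid list as well. All 4 natural killer genes that passed the filter were lower in KO cells (median -0.38), none of them called, and 2 were detected on no KO array. Their summed intensities were 187, 298 and 361 on WT arrays and 130, 186 and 262 on KO arrays. All 8 regulatory T cell genes were detected on every resting naive array, and their summed intensity was 2370, 2220 and 2285 on WT arrays and 3195, 2622 and 2522 on KO arrays, without overlap. The median difference of the list was 0.41, 7 of the 8 were higher and none was called, with Foxp3, the regulatory T cell master regulator, at a mean of 9.27 in KO and 8.83 in WT cells and Ikzf2 at 8.16 and 7.41. Among 15 other memory and effector genes Klrg1, an inhibitory receptor of effector cells, was called higher (1.14, SE 0.32, limma adjusted p = 0.28), although its arrays overlapped. Among 12 naive T cell genes Dapl1 was called lower (-1.13, SE 0.20, adjusted p = 0.0259). The part of these cell populations in the differences of S100a6, Lgals1 and S100a10 was not tested.

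In stimulated naive cells none of the 10 genes was called, against a background of 0.115% of genes. Lgals1 differed by 0.94 (SE 0.33, interval 0.27 to 1.62, unadjusted p = 0.00873 in limma), Lgals3 by 0.89 (SE 0.42, interval 0.02 to 1.76, 0.0465) and S100a6 by 0.62 (SE 0.30, interval 0.00 to 1.25, 0.0492), all with overlapping arrays and an adjusted p of 1.00. In each of these, KO replicate C was the lowest KO array. Leaving out 1 array gave 0.77 to 1.23 for Lgals1, 0.53 to 1.37 for Lgals3 and 0.47 to 0.80 for S100a6. All 8 regulatory T cell genes were higher in KO cells (median 0.13) and 10 of 12 naive T cell genes lower (median -0.19), none of them called. Cd8b1, a CD8 T cell gene, was lower on every KO array, with intensities of 213, 179 and 285 in WT and 95.2, 144 and 155 in KO cells (-0.79, not called), and the part of these cells in the members' differences was not tested. An unadjusted p under 0.05 was thus seen in 3 of the 10 genes, against 2.31% of all genes. S100a11 differed by -0.30 and Id2 by 0.48 (0.24 to 0.77 when 1 array was left out).

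In resting Th2 cells none was called either, against 0.106% of genes. Of the naive T cell genes 11 of 12 were lower in KO cells (median -0.37) and Cd8b1 differed by -0.95, with none of them called. The summed intensity of the 8 regulatory T cell genes was 2658, 2593 and 2092 on WT and 3531, 2878 and 2746 on KO arrays, without overlap. Tnfrsf18 was the brightest of them, with mean log2 levels of 10.68 in WT and 11.02 in KO cells, and so weighs most in this linear sum. Of 8 B cell genes 7 were higher in KO cells and all 4 natural killer genes were lower, none of them called. In each genotype, 2 of the 8 B cell genes and 3 of the 4 natural killer genes were detected on no array of this state. No direction is read from those. The part of these lists in the members' differences was not tested. S100a11 was lower on every KO array (-0.40, SE 0.19, interval -0.79 to -0.01, unadjusted p = 0.0467, limma adjusted p = 1.00), where 4.47% of genes had all KO arrays below WT. Lgals3 differed by 0.66 (SE 0.42) with overlap. S100a6 (-0.09, interval -0.71 to 0.53), S100a10 (-0.09, -0.68 to 0.50) and Anxa2, whose means were 11.96 in both genotypes, did not pass.

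In stimulated Th2 cells none of the 10 was called, against 0.096% of genes. S100a11 was again lower on every KO array (-0.51, SE 0.19, interval -0.90 to -0.12, 1.42-fold, unadjusted p = 0.0132, limma adjusted p = 1.00). Without KO replicate B its difference was -0.32. Anxa1 was above background on only 1 of the 6 arrays of this state, a WT array. No size or direction is therefore read from its difference (unadjusted p = 0.0101 in limma). All KO arrays lay below WT in 2 of the 10 genes, S100a11 and the near-background Anxa1, against 3.62% of all genes in this state. Cd8b1 differed by -0.70 and was not called. The summed intensity of the 8 regulatory T cell genes overlapped between the genotypes here, at 1706 to 2039 on WT and 1877 to 2276 on KO arrays. Cd44 differed by -0.40 (interval -0.91 to 0.12), Lgals3 by 0.61 (interval -0.26 to 1.48) and Lgals1 by 0.30 (interval -0.38 to 0.97). Leaving out 1 array gave -0.65 to -0.25 for Cd44, 0.22 to 0.91 for Lgals3 and 0.07 to 0.59 for Lgals1. In Th2 cells none of the 10 genes passed the test of the difference between the genotypes' stimulation changes (limma adjusted p = 1.00 for each), and no gene of all those tested did (0%).

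**Figure D4:**
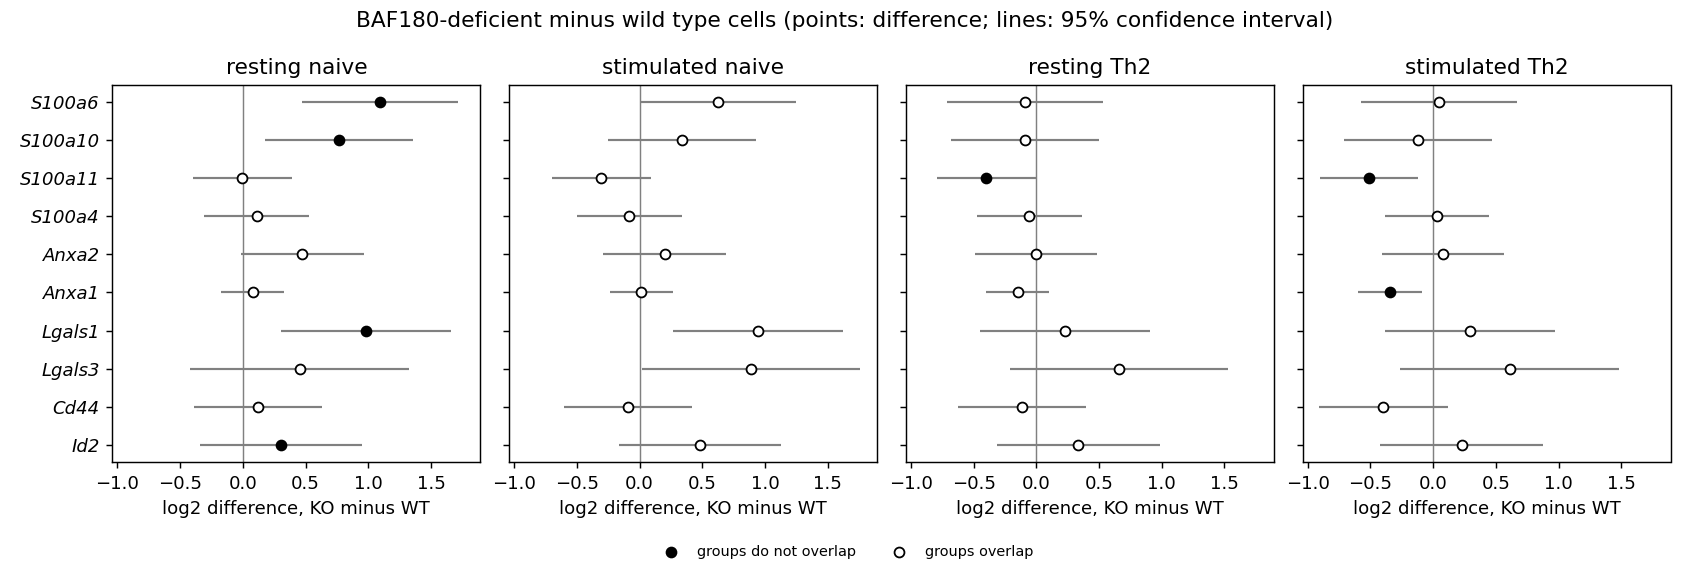
Log2 difference of KO minus WT with its 95% confidence interval (horizontal axis) for each of the 10 genes in the 4 cell states. Filled points mark genes whose 3 KO and 3 WT arrays did not overlap. S100a6, S100a10, Lgals1 and Id2 are filled and right of 0 in resting naive cells, and S100a11 is filled and left of 0 in both Th2 states. Anxa1, near background, is also filled and left of 0 in stimulated Th2 cells.

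The remaining members of the same families did not share one direction. Of 13 other S100 genes 11 were on the array and 7 were detected. In resting Th2 against resting naive WT cells 2 rose and 2 fell, against 17.9% of all genes called higher and 17.6% lower, S100a1 by 3.00 (limma adjusted p = 9.88e-07) and S100a13 by 2.84 (5.54e-08) upward, while S100a8 and S100a9, the calprotectin subunits of neutrophils and monocytes, were at least 18.8-fold and at least 3.82-fold lower. The WT resting naive arrays A, B and C of S100a8 read 8.56, 7.14 and 10.80 and those of S100a9 6.29, 5.41 and 7.90, with replicate C the highest of each. Without it S100a8 was at least 9.61-fold lower (limma adjusted p = 5.13e-07) and S100a9 at least 2.39-fold (4.33e-06). S100a13 was also called higher in KO than in WT resting naive cells (0.98, SE 0.26, adjusted p = 0.263), with means of 7.10 and 6.12 and no overlap.

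Of 10 other annexin genes 6 were detected and none was called higher in WT cells after naive stimulation, after Th2 stimulation or in resting Th2 against resting naive cells. In that last comparison 2 were lower, Anxa3 (-2.04) and Anxa5 (-0.44), where Anxa2 was higher. Anxa5 was higher in stimulated Th2 than in stimulated naive cells (1.29), and Anxa6 (1.90) and Anxa5 (0.91) in resting Th2 than in stimulated naive cells, where Anxa3 was lower (-1.63). After naive stimulation 3 fell (21.9% of all genes did), Anxa6 (-2.51), Anxa5 (-1.35) and Anxa11 (-0.93), and in Th2 cells Anxa6 fell after stimulation too (-2.13, limma adjusted p = 8.92e-07), unlike Anxa2 (-0.30, not called). Of 7 other galectin genes 4 were detected. Lgals8, a galectin with 2 sugar-binding domains, fell after naive stimulation (-2.14) and was lower in resting Th2 than in resting naive cells (-0.87), where Lgals1 and Lgals3 were higher. Among the 4 detected, 1 was called higher and 1 lower in that comparison of WT resting cells (17.9% and 17.6% of all genes). Lgals9 fell after Th2 stimulation (-0.97) and Lgals7 rose (0.56, limma adjusted p = 0.0459). In all, 1 of the 4 was called higher and 2 lower after WT Th2 stimulation (12.5% and 15.9% of all genes).

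Of 6 other Id genes and E proteins 4 were detected. Tcf4, which encodes an E protein that Id2 binds, fell after naive stimulation (-2.10, limma adjusted p = 0.000943) and was lower in resting Th2 cells (-2.35), and none of the 4 passed the test after Th2 stimulation, with Tcf4 at -0.96 (SE 0.47, adjusted p = 0.146), where Id2 rose. Among 12 detected partners of CD44 and the annexins, 6 fell after naive stimulation in WT cells (21.9% of all genes did), led by Ahnak (-2.81), which encodes a large scaffold protein that binds the annexin A2 and S100A10 complex. Vim, the intermediate filament vimentin, fell after naive stimulation (-1.57) and was higher in resting Th2 than in resting naive cells (3.18, adjusted p = 9.46e-09). In that last comparison 2 of the 12 partners were called higher and 4 lower in WT cells, against 17.9% and 17.6% of all genes. Spp1, which encodes the CD44 ligand osteopontin, rose after Th2 stimulation by 3.02 in WT and by 3.31 in KO cells, the states in which Cd44 rose too.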

How the data were processed

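Total RNA was labelled and hybridized to Illumina mouse bead arrays. The deposited table, exported with GenomeStudio 1.6.0 by the submitters' processing notes, gives for each of 24 arrays an intensity per probe, not normalized by the authors, and a detection p-value from the authors' software. From these, background was corrected and values were quantile normalized with neqc (offset 16) in limma 3.58.1 (R 4.3.3), and a probe was kept if any array gave it a detection p-value no higher than 0.02, which left 14246 of 25697 probes. Between 8047 and 10689 probes were detected per array. The number of arrays limits the precision.

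All 24 arrays entered 1 linear model with a mean for each of the 8 groups (lmFit and eBayes), and p-values were adjusted by Benjamini-Hochberg over all kept probes. State comparisons were called at an adjusted p under 0.05 and genotype comparisons by the 4 criteria named in the text, with limma's p and log2 differences in place of the study's own Z-scores. Probes were named through their accession, Entrez number or symbol. Named genes were the 10 members, Pbrm1, at most 6 called genes per other list and comparison in order of size, and the nearest 3 patterns per member. Ikzf2, Foxp3 and the uncalled genes of other lists named in the text were chosen after their values were seen. The members and lists were chosen with earlier results of these data known. The study describes the arrays as made from 3 WT and KO mouse pairs, while the labels do not say whether a letter marks such a pair or whether the states of a letter share a mouse. The labels give the strain as Balb/c and the methods a mixed background for the conditional mice, which was not resolved. The tests were checked on simulated data for the genotype comparison in resting naive cells. Of 100 probes changed by 1 log2 unit the 4 criteria recovered 85%, with 59 false calls among 14246 probes. An adjusted p under 0.05 recovered 74%, with 6 false calls.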

Additional observations from a re-analysis of the deposited data

How the results depend on the processing

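S100a4 and Anxa1 lay near background, where the size of a difference is poorly resolved with 3 arrays a group, although some of their differences were called. The 1 call between genotypes in resting naive cells (S100a6) became 0 without background correction, with quantile normalization within the cell state, with median scaling, without the detection filter, with only the compared groups fitted and at an adjusted p under 0.05. Leaving out 1 array gave 0 to 2 calls there and 0 in the other 3 states and in all 3 tests of differences between genotypes' changes. Pbrm1 in resting naive cells, called at -1.01, was not called within the state (-0.95), with median scaling (-0.85), with only the compared groups fitted (-1.01) or at an adjusted p under 0.05 (-1.01), nor in stimulated naive (-1.63) and stimulated Th2 cells (-1.42) with only the compared groups fitted. Without 1 array it ranged from -1.19 to -0.89 in resting naive (not called at -0.89, without KO replicate B), -1.86 to -1.34 in stimulated naive, -1.92 to -1.80 in resting Th2 and -1.55 to -1.26 in stimulated Th2 cells.

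For naive stimulation the WT count of 5 became 3 with median scaling, 3 with only the compared groups fitted and 2 by the 4 criteria, and the KO count of 6 became 3 with median scaling and 2 by the 4 criteria. For Th2 stimulation the WT count of 3 became 1 without the detection filter, 1 with only the compared groups fitted and 1 by the 4 criteria, and the KO count of 3 became 1 with Z-scores, 1 with median scaling, 0 without the filter and 1 by the 4 criteria. Resting Th2 against resting naive KO cells went from 4 to 7 with median scaling. Median scaling turned Anxa2 after WT naive stimulation to 0.071, where the median probe stood at -0.17 under that scaling and at 0.013 otherwise. The cause of these changes was not tested. Without 1 array the counts ranged from 4 to 6 in WT and 5 to 6 in KO for naive stimulation, 1 to 3 and 0 to 2 for Th2 stimulation, 4 to 6 and 3 to 5 for resting Th2 against resting naive, 8 to 9 and 7 to 8 for the stimulated states, and 7 for resting Th2 against stimulated naive cells.

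Same-lettered arrays deviated together with r of 0.30 (A), 0.14 (B) and 0.52 (C) over all states, but 2 of 12 values within a state were at or below 0.1, so the letters were not taken as pairs. With the letter as a replicate block the counts of called genes stayed within 1.5 times, 1 in resting naive KO against WT and 6 instead of 4 in resting Th2 against resting naive KO cells, where S100a6 was then called higher (adjusted p = 0.0371) and Cd44 lower (0.0321). Median scaling moved the share of higher among called probes from 48.4% to 37.8% in WT resting Th2 against stimulated naive cells and from 54.3% to 40.7% in KO resting Th2 against resting naive cells. Slide as a block was not run, since the table gives no slide.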

Other observations

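The naive T cell genes were followed through the same comparisons in WT cells. Of 12 detected, 9 fell after naive stimulation (21.9% of all genes fell) and none rose, 7 were lower in resting Th2 than in resting naive cells (17.6% of all genes) and none higher, and 7 fell (15.9% of all genes) and 1 rose after Th2 stimulation (limma adjusted p under 0.05). Against stimulated naive cells they ran both ways, with 5 called higher and 3 called lower at Th2 rest (11.4% and 12.1% of all genes, median of the list 0.59), and with 3 called higher and 5 called lower after Th2 stimulation (8.79% and 12.4%, median -0.43). Klf2, a factor that holds naive cells in circulation, fell by 5.71 on the log2 scale after naive stimulation. Actn1 was lower by -3.34 in resting Th2 than in resting naive cells.

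Other memory and effector genes ran in several directions. Of 15 detected, 3 rose and 6 fell after naive stimulation in WT cells (23.3% and 21.9% of all genes). In WT resting Th2 against resting naive cells 3 were called higher and 7 lower (17.9% and 17.6%). After WT Th2 stimulation 5 rose and none fell (12.5% and 15.9%). Ccl5, a chemokine of memory and effector cells, fell after naive stimulation (-2.40 in WT, -2.84 in KO), was lower in resting Th2 than in resting naive cells (-1.78 in WT, -3.70 in KO) and rose after Th2 stimulation (2.69 in WT, 2.88 in KO), whereas the difference of Lgals1 with Th2 stimulation was -0.06 in WT cells and did not pass the test. Tbx21, the Th1 regulator T-bet, rose after stimulation of both subsets in WT cells, by 2.42 in naive and by 3.13 in Th2 cells.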
